A study of Homo sapiens with 8 samples.

Results

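This account covers 43 human genes of double-strand break and interstrand crosslink repair, measured by RNA sequencing in HCT116 p53+/+ cells. They were taken by gene symbol from a deposited table of 58302 genes, each symbol matched 1 row, and all 43 had enough counts to be tested. HCT116 is an established human colon cancer line, and p53+/+ is the genotype its label gives. The cells received either 1 µM MANIO, a compound known here by its code name, or its solvent DMSO, and RNA was collected 24 hours later from 4 cultures of each group. The repair genes were not the stated object of the experiment. One line, one dose and one time were used, and the cells were not given a separate DNA-damaging agent.

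A broken chromosome can be mended by end joining, in which the Ku heterodimer and the DNA-dependent protein kinase hold the ends for ligation, or by homologous recombination. In recombination the ends are resected, and the BRCA proteins and the paralogue complexes built around RAD51C help to load a recombinase onto the single-stranded DNA. Crosslinks between the strands are unhooked by the Fanconi anaemia pathway, whose core complex marks the FANCD2 and FANCI proteins with ubiquitin. The kinases ATM and ATR signal the damage, and many recombination and Fanconi genes are transcribed mainly in the S and G2 phases of the cell cycle.

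Of the 43 genes, 5 rose, 16 fell and 22 did not pass the test. The test was edgeR's quasi-likelihood F test with p-values adjusted by the Benjamini-Hochberg method over 15712 genes, and an adjusted p under 0.05 was called. The share called was 48.8%, with 11.6% called higher and 37.2% called lower. Among all genes tested 54.6% were called, 27.8% higher and 26.8% lower, so the share of repair genes that changed was no larger than the share of genes in general. The median log2 fold change (MANIO over DMSO) was -0.11 for the 43 genes and 0.00 for all genes tested. All 4 MANIO libraries lay on one side of all 4 DMSO libraries for 17 repair genes (39.5%), against 48.3% of all genes. RAD51B was the only one of the 43 to change at least 2-fold, beside 1086 of all 15712 genes tested.

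The genes that rose were ATM, LIG4, FANCL, POLQ and ATR. Those that fell most after RAD51B were XRCC4, XRCC6, FANCC, MDC1, XRCC5 and CHEK1. ATM, CHEK1, MDC1, RAD51B, FANCC, XRCC4, XRCC5 and XRCC6 kept their call in each of the 14 alternative analyses. The other 13 called genes lost it in at least 1 of these. BARD1, FANCG, FANCL, LIG4, NBN, POLQ and RBBP8 lost it only under the stricter 1.2-fold limit given next. With the null hypothesis set at a 1.2-fold change (glmTreat in edgeR), 1 of the 43 genes was called higher (ATM) and 7 lower. At this limit 2302 of all 15712 genes tested were called higher and 1830 lower, 26.3% in all.

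**Figure D1:**
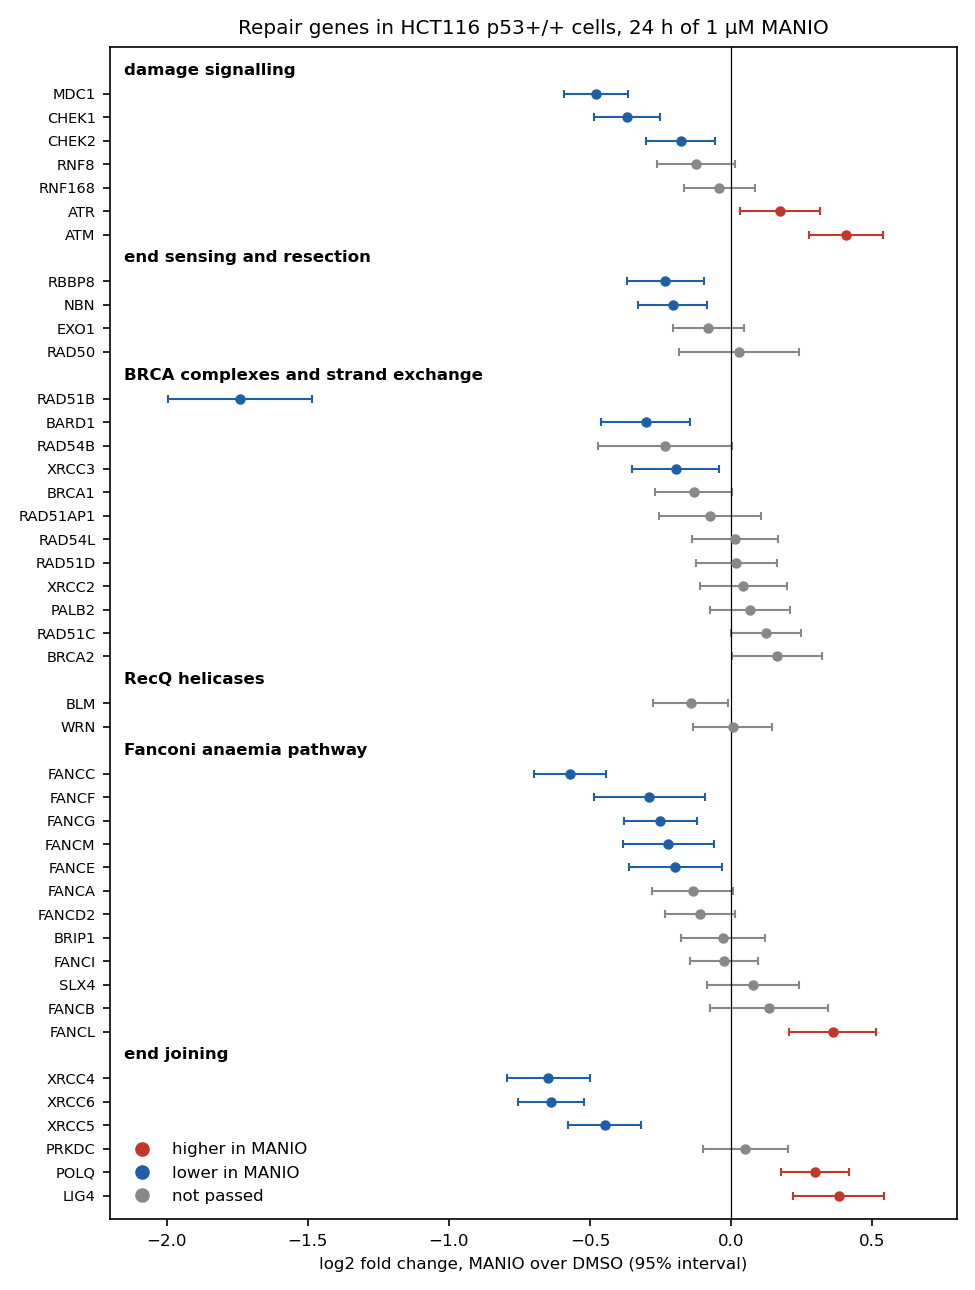
Log2 fold change of each of the 43 repair genes, MANIO over DMSO, with its 95% interval, grouped by role; red marks genes called higher, blue genes called lower and grey genes that did not pass. RAD51B stands apart at -1.74, and the end-joining genes lie on both sides of 0.

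The counts came from libraries of similar depth. Totals ranged from 27945196 to 32509020 per library. The MANIO libraries held 902.5 more genes with a count on average (exact permutation p = 0.0286, adjusted over 3 measures 0.0857). The groups were separate, at 22691 to 22951 genes in DMSO and 23465 to 23859 in MANIO. With 4 libraries per group 0.0286 is the smallest exact permutation p. A single measure of 3 at that value could therefore not pass after adjustment. The mitochondrial share was 7.08 ± 0.400% in MANIO against 5.64 ± 1.23% in DMSO (SD, n = 4 each; adjusted exact permutation p = 0.171). DMSO replicate 1 had a mitochondrial share of 7.48%. Epithelial markers of the line were present in every library, led by KRT8, KRT18, KRT19 and EPCAM, at a summed 3551 to 3798 CPM in DMSO and 4312 to 4823 CPM in MANIO. CPM here means counts per 1000000 counts after scaling. Of the intestinal markers, the transcription factor gene CDX2 averaged 15.7 CPM in DMSO and 18.3 CPM in MANIO, and VIL1 and CDX1 at most 0.205 CPM in either group. The 6 blood cell markers summed to at most 0.443 CPM and the 4 endothelial markers to at most 1.31 CPM. The 6 fibroblast markers summed to 21.6 to 26.5 CPM in DMSO and 39.5 to 47.6 CPM in MANIO, nearly all from COL1A1, while COL1A2, DCN and LUM averaged at most 0.0316 CPM.

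Genes of proliferation fell in the same libraries. Of 12 S phase genes 11 fell and CDT1 did not pass, with summed levels of 2629 to 3093 CPM in DMSO and 1882 to 2095 CPM in MANIO. Of 12 genes of G2 and mitosis 11 fell and TOP2A did not pass, with sums of 2723 to 3041 CPM and 1980 to 2215 CPM. The part of these shifts in the changes of the repair genes was not tested. In bulk RNA, fewer cells in a given phase and less RNA per cell cannot be told apart.

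Promoter sequences are shown for the 2 called genes with the largest falls and the 2 with the largest rises, among genes that the RefSeq promoter table holds. XRCC4 and LIG4 encode partners in one ligase complex and moved in opposite directions, ATM is the apical damage kinase, and RAD51B had the largest change of all. Each line gives 250 bases before to 50 bases after a transcription start from RefSeq (GRCh38.p14), 5′ to 3′ on the gene's own strand. The windows lie at chr14:67823291-67823590 for RAD51B (plus strand), chr5:83077297-83077596 for XRCC4 (plus), chr11:108222817-108223116 for ATM (plus) and chr13:108218300-108218599 for LIG4 (minus). Where RefSeq gives several starts, the one nearest the gene's annotated 5′ end was used. The RAD51B start lies 3.76 kb inside the gene from that end in GENCODE 29, so its window does not show the sequence before the annotated 5′ end, while the other 3 starts lie within 583 bases of theirs. Capitals mark words of a CCAAT box (CCAAT), a cell cycle homology region or CHR (TTTGAA or TTCGAA) or an E2F site (TTTGGCGC, TTTCGCGC or TTTCCCGC), on either strand.
RAD51B: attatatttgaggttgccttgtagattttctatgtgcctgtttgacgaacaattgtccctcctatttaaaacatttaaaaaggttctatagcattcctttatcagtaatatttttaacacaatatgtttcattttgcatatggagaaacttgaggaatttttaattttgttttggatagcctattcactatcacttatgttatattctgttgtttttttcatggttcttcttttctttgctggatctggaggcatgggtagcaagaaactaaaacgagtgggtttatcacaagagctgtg
XRCC4: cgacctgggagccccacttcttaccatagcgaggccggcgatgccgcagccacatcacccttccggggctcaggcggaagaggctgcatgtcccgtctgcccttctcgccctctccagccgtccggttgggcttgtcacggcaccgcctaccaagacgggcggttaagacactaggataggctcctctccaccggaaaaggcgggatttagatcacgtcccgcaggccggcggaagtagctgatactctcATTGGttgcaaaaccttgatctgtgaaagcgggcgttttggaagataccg
ATM: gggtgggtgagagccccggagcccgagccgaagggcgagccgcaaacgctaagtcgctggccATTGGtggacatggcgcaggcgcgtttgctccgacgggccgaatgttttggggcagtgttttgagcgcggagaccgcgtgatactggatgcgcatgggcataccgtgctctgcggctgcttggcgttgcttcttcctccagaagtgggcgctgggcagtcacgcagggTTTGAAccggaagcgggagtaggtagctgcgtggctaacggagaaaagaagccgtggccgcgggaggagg
LIG4: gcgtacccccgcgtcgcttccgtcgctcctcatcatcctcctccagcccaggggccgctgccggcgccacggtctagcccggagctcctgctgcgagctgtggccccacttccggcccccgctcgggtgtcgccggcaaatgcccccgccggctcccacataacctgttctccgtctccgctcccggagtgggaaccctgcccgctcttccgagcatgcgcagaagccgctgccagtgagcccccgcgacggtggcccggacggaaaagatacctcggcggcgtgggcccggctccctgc
The RAD51B window, which lies wholly inside the annotated gene, is AT-rich. It has 32.3% G and C, the lowest of the 52 windows that RefSeq gives for 37 of the 43 genes. This value does not describe the sequence before the annotated 5′ end of RAD51B. The XRCC4, ATM and LIG4 windows have 60.7%, 64.3% and 72.3%. The median is 64.3% over the windows of the repair genes and 58.7% over all 35116 windows.

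The ATM window holds a CCAAT word and a CHR word, and the XRCC4 window a CCAAT word. The RAD51B and LIG4 windows shown hold none of these words, though a second LIG4 window has a CCAAT box. For RAD51B this says nothing of the sequence before the annotated 5′ end, which its window does not show. The CCAAT word was found in 23 of the 52 windows of repair genes (44.2%) and in 34.6% of all windows. An E2F word was found in 5 (9.62%), those of EXO1, FANCD2, XRCC2, FANCC and XRCC6, and in 2.74% of all windows. A CHR word was found in 5 (9.62%) against 16.4% of all windows. Several windows belong to the same gene and overlap. The E2F words occurred in windows of 2 genes that fell, FANCC and XRCC6, and of 3 that did not pass.

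Damage signalling genes moved in both directions, with the kinases ATM and ATR higher and MDC1, CHEK1 and CHEK2 lower. Of 7 genes 2 rose, 3 fell and 2 did not pass. For this role and those below, 54.6% of all genes tested were called, and each role holds few genes. ATM, the kinase that responds to chromosome breaks, was at 68.5, 60.1, 60.3 and 63.0 CPM in the DMSO libraries and at 80.0, 79.3, 84.3 and 90.4 CPM in the MANIO libraries. The groups did not overlap, and the log2 fold change was 0.41 (SE 0.0613, adjusted p = 5.1e-05), a rise of 32.6%. The gene (ENSG00000149311) spans 147 kb on chromosome 11, at 108222484 to 108369102 of GRCh38.

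MDC1, the scaffold that binds phosphorylated H2AX beside a break, went from 115, 126, 124 and 116 CPM in DMSO to 86.2, 89.8, 86.2 and 82.3 CPM in MANIO. Every MANIO library was below every DMSO library (log2 fold change -0.48, SE 0.0531, adjusted p = 2.6e-06). CHEK1, the effector kinase downstream of ATR, stood at 89.4, 86.8, 87.5 and 89.4 CPM in DMSO and at 64.0, 73.3, 66.0 and 70.02 CPM in MANIO (log2 fold change -0.37, SE 0.0545, adjusted p = 4.3e-05). Its DMSO libraries lay close together, and the MANIO libraries were lower and more spread.

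CHEK2, the effector kinase downstream of ATM, fell less (log2 fold change -0.18, adjusted p = 0.015), and the adjusted p was 0.0579 without MANIO replicate 2. ATR, the kinase of single-stranded DNA and stalled forks, had a log2 fold change of 0.17 (adjusted p = 0.038), with DMSO at 57.3 to 70.5 CPM and MANIO at 66.6 to 72.7 CPM. The ATR groups overlapped, and the call was lost in 5 of the 8 fits that left out 1 library: without DMSO replicate 3 or 4, or MANIO replicate 1, 2 or 4 (adjusted p 0.0568 to 0.139). It was also lost with upper-quartile scaling (adjusted p = 0.0504) and with no filter on low counts (adjusted p = 0.0544). In ATR 16.4% of the exonic bases lie in exons of other genes. The ubiquitin ligase genes RNF8 (log2 fold change -0.13, adjusted p = 0.11) and RNF168 (-0.04, adjusted p = 0.57), which act after MDC1, did not pass, though RNF8 was called without DMSO replicate 4 (adjusted p = 0.0147).

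Among 4 genes of end sensing and resection, 2 fell and 2 did not pass. NBN, the subunit of the MRE11 complex that recruits ATM, was at 103.1, 92.9, 94.8 and 93.9 CPM in DMSO and at 80.8, 82.5, 79.6 and 90.3 CPM in MANIO (log2 fold change -0.21, SE 0.0570, adjusted p = 0.0063). RBBP8, which encodes the resection factor CtIP, was at 99.995, 87.5, 87.9 and 82.1 CPM in DMSO and at 74.3, 77.1, 71.8 and 80.7 CPM in MANIO (-0.23, SE 0.0640, adjusted p = 0.0062). For both genes the groups were separate by a narrow margin. EXO1, a nuclease of long-range resection, was at 57.9, 64.8, 61.1 and 56.2 CPM in DMSO and at 54.8, 59.5, 55.2 and 57.4 CPM in MANIO. Its groups overlapped and it did not pass (-0.08, adjusted p = 0.26).

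The third subunit gene of the MRE11 complex, RAD50, had a log2 fold change of 0.03 and a 95% interval of -0.18 to 0.24. Its level of 4.87 to 6.58 CPM in DMSO cannot be set beside those of its partners. Of its exonic bases 79.7% are shared with other genes, most of all AC116366.3 on the same strand. The labels do not say how reads shared by overlapping genes were counted. RAD50 had 131 to 207 counts per library.

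Of 12 BRCA and strand exchange genes 3 fell (25%) and 9 did not pass. RAD51B, a recombination mediator that works in a complex with RAD51C, RAD51D and XRCC2, was at 6.91, 6.01, 6.10 and 6.07 CPM in DMSO and at 1.77, 2.28, 1.68 and 1.75 CPM in MANIO. These levels rest on 171 to 192 counts per DMSO library and 52 to 75 per MANIO library. The groups were far apart, with a log2 fold change of -1.74 (SE 0.119, adjusted p = 1.9e-08) and a fall of 70.1%. RAD51B (ENSG00000182185) spans 910 kb on chromosome 14, at 67819779 to 68730218, the longest of the 43 genes.

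The partners of RAD51B gave no such change. RAD51C, shared by both paralogue complexes, had a log2 fold change of 0.12 (adjusted p = 0.082), RAD51D one of 0.02 (adjusted p = 0.84) and XRCC2 one of 0.04 (adjusted p = 0.64). Their 95% intervals were 0.00 to 0.25, -0.12 to 0.16 and -0.11 to 0.20. XRCC3, which pairs with RAD51C in the second complex, was at 35.9, 42.3, 40.8 and 40.003 CPM in DMSO and at 35.7, 35.6, 37.2 and 30.2 CPM in MANIO (-0.20, SE 0.0728, adjusted p = 0.032). Its groups overlapped through DMSO replicate 1. Of its exonic bases 76.7% are shared with other genes, most of all KLC1 on the other strand, and the kit does not mark strand. The XRCC3 call was lost in 5 of the 8 fits that left out 1 library, namely DMSO replicate 2, 3 or 4 or MANIO replicate 2 or 4 (adjusted p 0.0520 to 0.0873). RAD51C was called without MANIO replicate 1 (adjusted p = 0.0285).

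BARD1, the obligate partner of BRCA1 in its ubiquitin ligase, was at 31.5, 27.97, 32.5 and 30.6 CPM in DMSO and at 23.2, 26.2, 22.5 and 27.4 CPM in MANIO, with no overlap (log2 fold change -0.30, SE 0.0740, adjusted p = 0.0029). BRCA1 itself ran from 84.0 to 99.0 CPM in DMSO and from 76.3 to 88.9 CPM in MANIO, and its log2 fold change of -0.13 did not pass (adjusted p = 0.094). It was called without DMSO replicate 4 or MANIO replicate 4 (adjusted p 0.0435 and 0.0477). BRCA2, a mediator of strand exchange, had a log2 fold change of 0.16 (adjusted p = 0.080) and was called without DMSO replicate 1 or MANIO replicate 3 (adjusted p 0.0265 and 0.0398). PALB2, the bridge between BRCA1 and BRCA2, had one of 0.07 (adjusted p = 0.41).

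The remaining recombination genes did not pass. RAD51AP1, an accessory factor of strand exchange, had a log2 fold change of -0.08, and the DNA translocase genes RAD54L and RAD54B had 0.01 and -0.23. In RAD54B 59.1% of the exonic bases are shared with other genes, most of all FSBP, and in RAD54L 25.1%, most of all LRRC41. Of the RecQ helicase genes, whose products unwind recombination intermediates, BLM was at 51.5, 52.998, 50.2 and 48.9 CPM in DMSO and at 44.7, 47.8, 42.0 and 49.95 CPM in MANIO (-0.14, adjusted p = 0.063). Neither helicase gene passed in edgeR's test with TMM scaling or in DESeq2, and BLM alone had an unadjusted p under 0.05. BLM was called with upper-quartile scaling (adjusted p = 0.039) and without MANIO replicate 4 (adjusted p = 0.0185). WRN was at 51.5, 50.8, 44.6 and 49.2 CPM and at 49.1, 47.9, 45.7 and 54.2 CPM, with a log2 fold change of 0.01 and a 95% interval of -0.14 to 0.15.

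**Figure D2:**
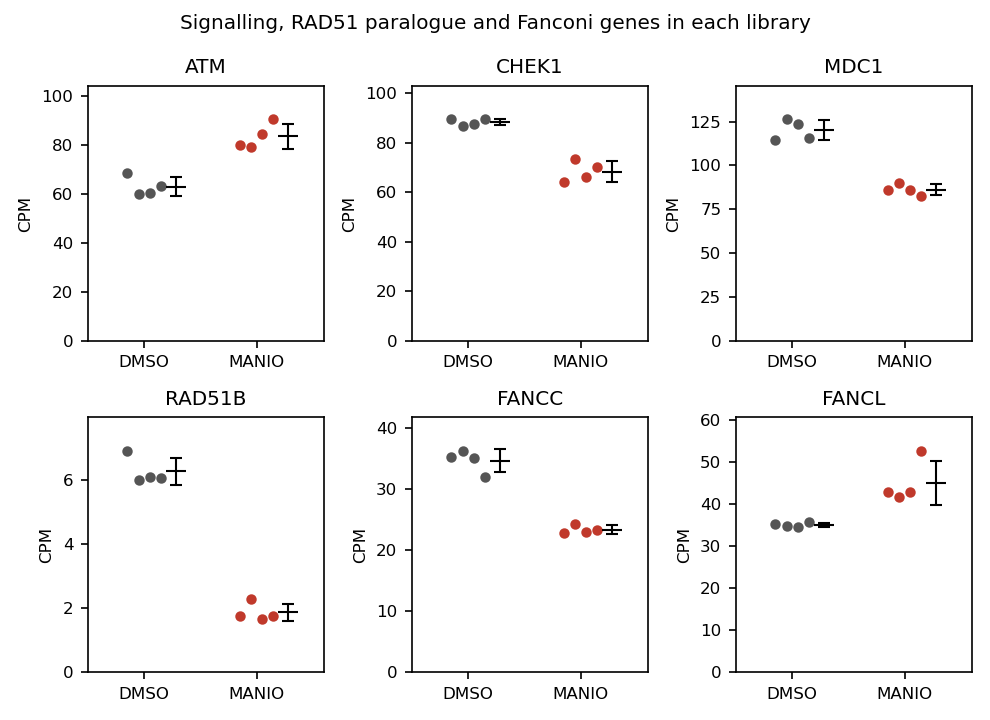
CPM in each library for 6 repair genes, with DMSO libraries in grey, MANIO libraries in red, and the mean with its SD (n = 4) beside the points; each vertical axis starts at 0. ATM and FANCL lie higher in MANIO, and CHEK1, MDC1, RAD51B and FANCC lower, with no overlap between groups.

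Of 12 genes of the Fanconi pathway 5 fell, 1 rose and 6 did not pass. The called genes were 5 of the core complex and FANCM, which anchors it to DNA. FANCC, a core subunit that spans 328 kb on chromosome 9 at 95099054 to 95426796, was at 35.3, 36.3, 35.2 and 32.1 CPM in DMSO and at 22.8, 24.4, 23.0 and 23.3 CPM in MANIO. The groups were clearly separate (log2 fold change -0.57, SE 0.0600, adjusted p = 1.5e-06).

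FANCL, the ubiquitin ligase subunit of the core complex, was at 35.4, 34.7, 34.5 and 35.6 CPM in DMSO and at 42.9, 41.5, 42.8 and 52.6 CPM in MANIO (log2 fold change 0.36, SE 0.0724, adjusted p = 0.00065). Every MANIO library was higher, and replicate 4 stood above the other 3. In FANCL 19.7% of the exonic bases are shared with other genes, most of all VRK2 on the other strand. FANCG, a small core gene of 6.18 kb, was at 70.5, 78.7, 74.9 and 65.7 CPM in DMSO and at 60.6, 63.5, 60.7 and 58.6 CPM in MANIO (-0.25, SE 0.0611, adjusted p = 0.0027), also with no overlap.

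The core genes FANCF (-0.29, adjusted p = 0.015) and FANCE (-0.20, adjusted p = 0.041) and the fork translocase gene FANCM (-0.22, adjusted p = 0.021) fell as well. These calls were less firm: FANCF had an adjusted p of 0.0546 without DMSO replicate 4, FANCE lost its call in 5 of 8 such fits (DMSO replicate 2 or 3, MANIO replicate 2, 3 or 4; adjusted p 0.0776 to 0.138) and FANCM in 3 (DMSO replicate 2, MANIO replicate 1 or 3; adjusted p 0.0638 to 0.0668). FANCA (-0.14, adjusted p = 0.099) and the X-linked FANCB (0.13, adjusted p = 0.27) did not pass. FANCA shares 23.6% of its exonic bases with other genes, most of all ZNF276. FANCA was called without DMSO replicate 1 (adjusted p = 0.00821) and with no filter on low counts (adjusted p = 0.049).

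The substrates FANCD2 (-0.11) and FANCI (-0.03), the nuclease scaffold gene SLX4 (0.08) and the helicase gene BRIP1 (-0.03) did not pass. The 95% interval was -0.24 to 0.01 for FANCD2 and -0.15 to 0.09 for FANCI. FANCI was among the better expressed repair genes, at 160 to 183 CPM in DMSO and 158 to 179 CPM in MANIO.

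Of 6 end-joining genes 3 fell, 2 rose and 1 did not pass, where 54.6% of all genes tested were called. XRCC6, which encodes Ku70, was at 1056, 1081, 1031 and 961 CPM in DMSO and at 674, 679, 635 and 665 CPM in MANIO. XRCC5, which encodes its partner Ku80, was at 894, 842, 790 and 755 CPM in DMSO and at 614, 613, 566 and 612 CPM in MANIO. Both genes were lower in every MANIO library, by 35.8% for XRCC6 (log2 fold change -0.64, SE 0.0545, adjusted p = 1.8e-07) and by 26.7% for XRCC5 (-0.45, SE 0.0605, adjusted p = 1.9e-05). XRCC6 spans 42.9 kb on chromosome 22 at 41621119 to 41664048, and XRCC5 98.8 kb on chromosome 2 at 216107464 to 216206303.

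XRCC4, the scaffold of the ligase that seals the ends, was at 53.2, 49.5, 53.005 and 52.2 CPM in DMSO and at 28.8, 33.6, 34.3 and 36.1 CPM in MANIO (log2 fold change -0.65, SE 0.0683, adjusted p = 1.6e-06). The ligase gene itself, LIG4, went the other way, from 20.1, 19.6, 21.7 and 23.1 CPM to 24.5, 27.4, 27.9 and 30.3 CPM (0.38, SE 0.0755, adjusted p = 0.00056). The groups were separate for both genes. LIG4, POLQ and PRKDC are given by library because they are partners or alternatives of the genes above and were picked after their values were seen.

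POLQ, the polymerase of the alternative, microhomology-mediated route, rose from 44.0, 45.7, 42.7 and 41.5 CPM to 52.1, 55.4, 50.8 and 55.3 CPM (log2 fold change 0.30, SE 0.0565, adjusted p = 0.00041). PRKDC, the catalytic subunit of the DNA-dependent protein kinase that Ku recruits, was at 788, 795, 675 and 672 CPM in DMSO and at 798, 808, 702 and 726 CPM in MANIO. Its groups overlapped, and the log2 fold change of 0.05 did not pass (95% interval -0.10 to 0.20).

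**Figure D3:**
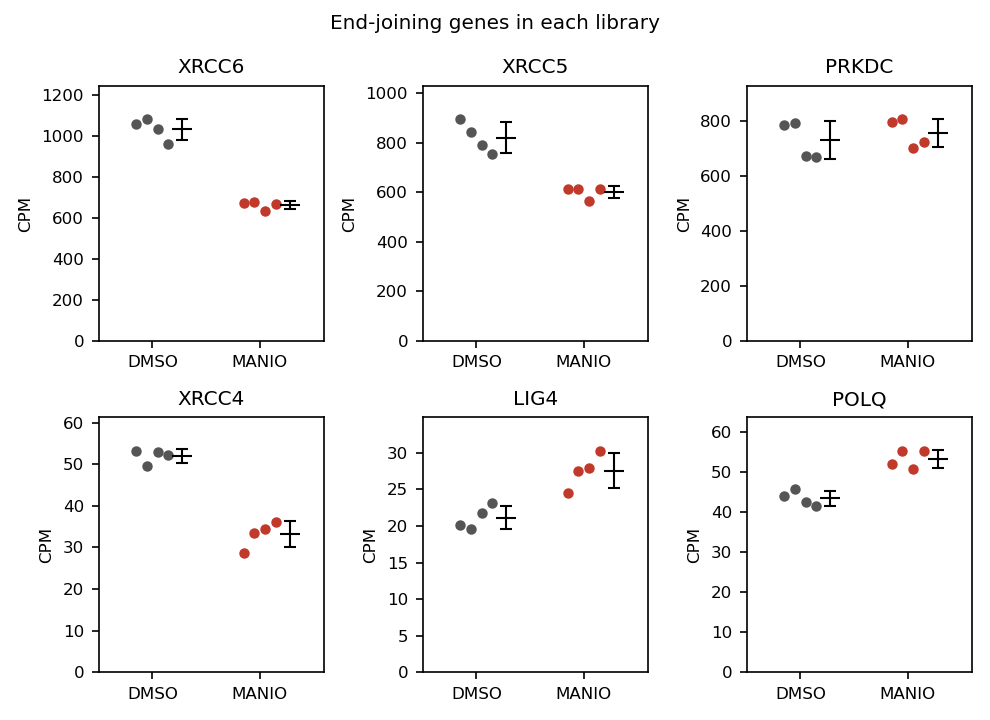
CPM of the 6 end-joining genes in each library, with DMSO in grey, MANIO in red, and the mean with its SD (n = 4) beside the points; each vertical axis starts at 0. XRCC6, XRCC5 and XRCC4 lie lower in all MANIO libraries, LIG4 and POLQ higher, and PRKDC overlaps.

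Genes for parts of the same machine therefore changed by different amounts. To measure this without library scaling, 13 ratios between partner genes were formed in each library from CPM per kilobase of exon. The pairs were chosen after the values of single genes were seen, so the ratios restate those values and are given as a description with no test. The groups were separate for 8 of the 13 ratios. The ratio of LIG4 to XRCC4 was 0.230, 0.242, 0.250 and 0.270 in DMSO and 0.519, 0.498, 0.497 and 0.512 in MANIO. That is a 2.05-fold difference, and no MANIO library came near the DMSO range.

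The ratio of PRKDC to XRCC6 went from 0.151 ± 0.00882 to 0.244 ± 0.0110 (SD, n = 4 each), a 1.61-fold difference, and that of XRCC5 to XRCC6 from 0.478 ± 0.0214 to 0.545 ± 0.00739. The ratio of RAD51C to RAD51B rose from 13.5 ± 1.06 to 50.01 ± 7.76. Among Fanconi genes the ratio of FANCE to FANCC went from 4.11 ± 0.222 to 5.33 ± 0.513, and that of FANCI to FANCD2 from 1.96 ± 0.0779 to 2.08 ± 0.0338. For the checkpoint, CHEK1 to ATR fell from 2.69 ± 0.249 to 1.84 ± 0.0993, and CHEK2 to ATM from 4.38 ± 0.210 to 2.92 ± 0.0448.

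Groups overlapped for the other 5 ratios. BARD1 to BRCA1 averaged 0.508 ± 0.0583 without the compound and 0.449 ± 0.0150 with it, PALB2 to BRCA2 was 2.94 ± 0.115 and 2.76 ± 0.227, and RAD51D to XRCC2 was 0.331 ± 0.0334 and 0.326 ± 0.0378. FANCL to FANCB was 6.42 ± 0.462 and 7.53 ± 0.795, and FANCA to FANCG was 0.596 ± 0.0488 and 0.645 ± 0.0126.

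**Figure D4:**
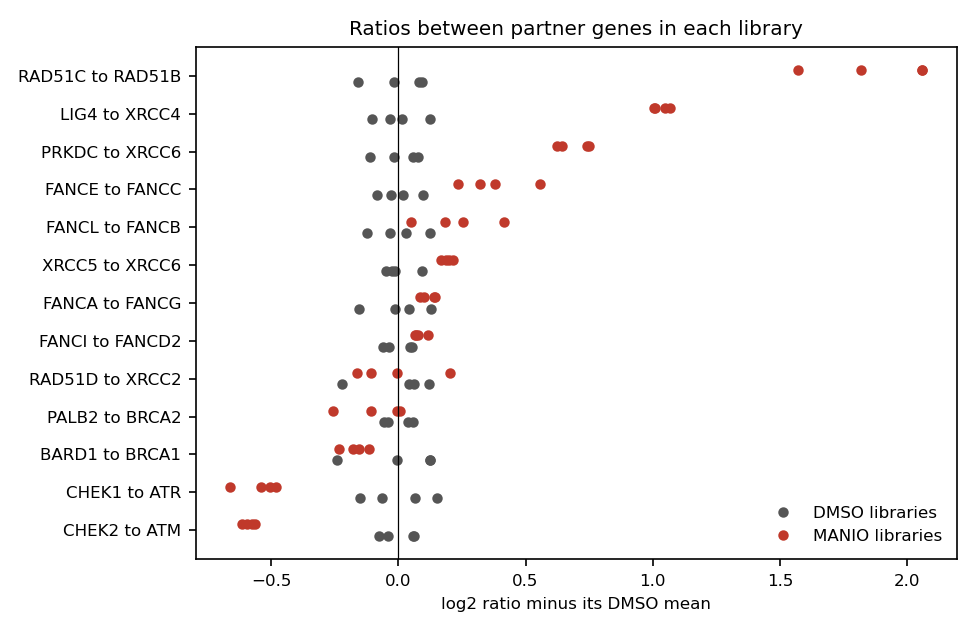
Log2 of 13 ratios between partner genes in each library, minus the mean of the 4 DMSO libraries, with DMSO in grey and MANIO in red. RAD51C to RAD51B, LIG4 to XRCC4 and PRKDC to XRCC6 lie furthest to the right in MANIO, and CHEK1 to ATR and CHEK2 to ATM to the left.

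Levels per length placed the Ku genes first. In DMSO, XRCC6 had 314 ± 15.7 CPM per kilobase of exon, XRCC5 150 ± 11.1, PRKDC 47.5 ± 4.43 and FANCI 22.3 ± 1.23, and the median of the 43 genes was 8.69. In MANIO the same 4 genes led, with 202 ± 6.03, 110 ± 4.32, 49.2 ± 3.40 and 21.9 ± 1.10 CPM per kilobase, and the median was 8.43. These 4 were separate from each other in both groups. Further down the order was loose: only 11 of 42 neighbouring pairs in DMSO and 9 in MANIO had ranges that did not overlap. FANCL moved from rank 11 to rank 5 and XRCC4 from rank 6 to rank 11. Exonic lengths count every annotated exon of a gene, so levels per length are lowered for genes with many alternative exons.

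Gene span was set beside the fold changes, because the largest fall was in the longest gene. Of 6 repair genes that span over 150 kb, 4 fell (RAD51B, FANCC, XRCC4 and RBBP8) and 2 did not pass (PRKDC and BRIP1). Their median log2 fold change was -0.40, which includes RAD51B, the gene that prompted the comparison. The others were at -0.65 (XRCC4), -0.57 (FANCC), -0.23 (RBBP8), -0.03 (BRIP1) and 0.05 (PRKDC). With the limit at 100 kb a low median of the longest class was not seen. The 12 repair genes over 100 kb had a median of -0.081 (3 higher, 4 lower), against -0.14 for all genes of that span. The 6 under 20 kb had -0.22, against 0.04. Among all 1521 tested genes over 150 kb the median was -0.24, and 53.9% were called lower and 15.6% higher. The 19 repair genes of 50 to 150 kb had a median of -0.13, against -0.02 for all genes of that span, and the 18 under 50 kb had -0.06, against 0.04. RAD51B, at -1.74, lay below the lower quartile of -1.46 of the 138 tested genes that span over 500 kb, whose median was -0.88.

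Span did not order the other repair genes. Spearman's rho between span and log2 fold change was -0.07 over the 43 genes and Pearson's r with log2 span was -0.30, which became -0.03 without RAD51B. Over all 15673 tested genes with an annotated span rho was -0.15. These correlations run across genes measured in the same libraries and are descriptions. Short genes such as MDC1 (18.1 kb) and XRCC6 fell, and ATM and POLQ, which span 147 and 115 kb, rose.

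**Figure D5:**
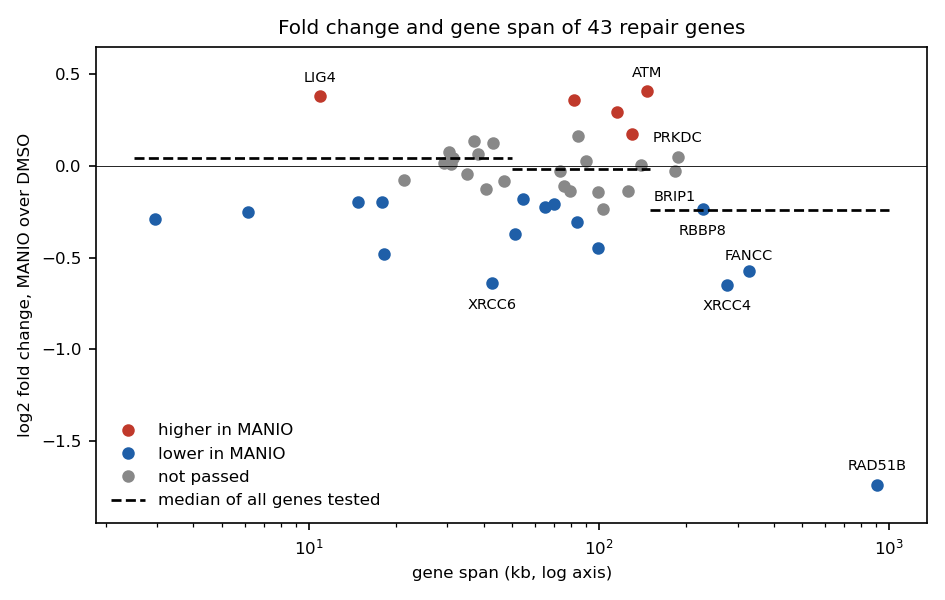
Log2 fold change of the 43 repair genes against gene span on a log axis, coloured by call, with dashed lines at the median of all tested genes under 50 kb, from 50 to 150 kb and over 150 kb. RAD51B lies at the lower right, and genes that fell occur at every span.

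Other genes of the same pathways were listed by role, 77 in all. Of the 76 that could be tested 12 rose (15.8%) and 31 fell (40.8%), with a median log2 fold change of -0.09. ATRIP had too few counts. The share called in either direction was 56.6%, near the 54.6% of all genes tested (27.8% higher and 26.8% lower). By role the counts were 2 higher and 9 lower of 20 for damage signalling, 1 and 4 of 7 for resection, 2 and 6 of 17 for strand exchange, 1 and 2 of 7 for helicases and resolvases, 2 and 5 of 14 for crosslink repair and 4 and 5 of 11 for end joining. The falls were spread over all roles.

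The smallest p-values were those of UBE2T, RPA3, REV3L, SFR1, MRE11, BABAM2, MCM9 and MND1. UBE2T, the conjugating enzyme that works with FANCL, fell from 78.8 ± 3.70 to 52.2 ± 1.65 CPM (SD, n = 4 each; log2 fold change -0.59, adjusted p = 3.6e-07), while FANCL rose. MRE11, the nuclease partner of NBN and RAD50, was at 30.0, 28.2, 30.8 and 33.1 CPM in DMSO and at 42.7, 47.1, 49.9 and 53.9 CPM in MANIO (0.66, SE 0.0744, adjusted p = 2.9e-06). MRE11 was thus higher in the MANIO group, where NBN was lower, and all 4 MANIO libraries were above all 4 DMSO libraries. REV3L, the catalytic subunit of translesion polymerase zeta, rose from 51.0 ± 4.10 to 79.3 ± 3.72 CPM (0.64, adjusted p = 8.5e-07).

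The recombination factor genes SFR1 (-0.61), MCM9 (-0.55) and MND1 (-0.60), the BRCA1-A complex gene BABAM2 (-0.62; it spans 449 kb) and RPA3 (-0.77), the smallest RPA subunit gene, fell too. H2AFX, the gene of the histone that MDC1 reads, went from 113 ± 19.3 to 67.6 ± 10.5 CPM (log2 fold change -0.75, adjusted p = 0.0012). The largest rises on this list were of the end-joining genes NHEJ1 (1.23, adjusted p = 0.028) and APLF (0.80, adjusted p = 0.00012). NHEJ1 was counted at 0.192 ± 0.181 CPM in DMSO with overlapping groups, and 65.4% of its exonic bases lie in exons of other genes, so its value is uncertain. APLF went from 1.87 ± 0.280 to 3.26 ± 0.221 CPM with separate groups. These levels rest on 46 to 61 counts per DMSO library and 93 to 108 per MANIO library. In APLF 22.8% of the exonic bases are shared with other genes, most of all PROKR1.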

How the data were processed

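RNA of 8 cultures was sequenced, 4 per group. Per the labels' protocols, libraries were made from total RNA with Illumina's TruSeq RNA kit v2, which does not mark strand. The authors deposited raw read counts per Ensembl gene, as the whole-number values show. FastQC 1.3, STAR 2.5.3a, HTSeq, DESeq2 and GRCh38 are listed, with no roles, in the submitters' processing notes. Not given in the sources used here: which annotation was counted, on which strand, and how reads in several genes were treated. Every count column belonged to 1 of the 8 samples and every line names a gene.

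Counts were filtered with edgeR's filterByExpr (15712 genes kept), scaled by trimmed mean of M-values (TMM) and tested with the robust quasi-likelihood F test of edgeR 4.0.16 in R 4.3.3, with group as the only term and Benjamini-Hochberg adjustment over all genes tested. SE is the log2 fold change divided by the root of F, and 95% intervals use the test's degrees of freedom. Levels are TMM-scaled CPM with the SD over 4 libraries. Positions, spans and exonic overlap on either strand come from GENCODE 29 (GRCh38), promoters from RefSeq (GRCh38.p14). Each overlap percentage counts bases shared with any other gene, and a gene named beside it has the largest share. The labels describe cultures treated in quadruplicate; p-values measure the spread between these. No library was a copy of another: within a group, chi-square over degrees of freedom was 3.38 to 22.2. The procedure was tested on simulated data.

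Alternatives were upper-quartile scaling, DESeq2 1.42.0, no filter, non-robust dispersion, a replicate block, a 1.2-fold limit (glmTreat) and leaving out each library. The genes and lists were chosen with earlier results of these data known. Values in every library are given for the 3 genes of smallest p in each of 6 roles; the others are given by their log2 fold change. Of the other pathway genes, the 8 of smallest p and the 2 largest rises and falls among called genes are named. Library measures were compared by exact two-sided permutation over 70 assignments. Some items are not reported here, and protein sequences were not used here.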

Additional observations from a re-analysis of the deposited data

Results flagged for a closer look

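In a group of 4, a library was picked out when its gap to the nearest other library, as a share of the group's whole range, exceeded Dixon's 95% critical value. Chance alone picks out about 1 in 20 groups, and 86 groups of repair gene values were examined, of which 8 were picked out. RAD51B was at 6.91 CPM in DMSO replicate 1, against 6.01 to 6.10 CPM in the other DMSO libraries. It was at 2.28 CPM in MANIO replicate 2, against 1.68 to 1.77 CPM. FANCL was at 52.6 CPM in MANIO replicate 4, against 41.5 to 42.9 CPM. XRCC5 was at 566 CPM in MANIO replicate 3, against 612 to 614 CPM, and ATR was at 66.6 CPM in that library, against 72.0 to 72.7 CPM. RNF8 was at 38.1 CPM in DMSO replicate 4, against 44.9 to 45.8 CPM. BRCA2 was at 28.3 CPM in DMSO replicate 1, against 24.4 to 25.0 CPM, and FANCD2 at 105 CPM in DMSO replicate 2, against 90.4 to 92.9 CPM. The mitochondrial share of DMSO replicate 1, 7.48%, was picked out in the same way, against 4.82% to 5.21% in the other DMSO libraries.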

How the results depend on the processing

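Counts of calls among the repair genes changed little except under a limit on fold. With glmTreat at 1.2-fold, 1 repair gene was higher and 7 were lower, and 5 and 11 of the other pathway genes. Of all 15712 genes tested 26.3% were called at that limit, 2302 higher and 1830 lower. Leaving out 1 library at a time gave 4 to 6 repair genes higher and 13 to 17 lower, and 10 to 13 and 27 to 30 of the other pathway genes. Deviations from the group means of same-numbered libraries correlated at 0.04 to 0.16, not all over 0.1. Pairs of libraries with different numbers ran from -0.31 to 0.29, and not every library correlated best with its own number. The labels do not say whether same-numbered libraries shared a batch, and these values do not settle it. With the replicate block 5 repair genes were higher and 16 lower, the counts of the analysis without it.

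With span classes set at 20 and 100 kb, the median log2 fold change was -0.22 under 20 kb, -0.076 from 20 to 100 kb and -0.081 over 100 kb, so the low median of the longest class was not seen with these limits. Leaving out 1 library gave differences (MANIO minus DMSO) of 847.7 to 979 genes with a count and 1.16 to 2.05 points of mitochondrial share. Without DMSO replicate 1 the adjusted exact permutation p was 0.0429 for genes with a count (difference 868.8) and for the mitochondrial share (2.05 points).

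Changes of sign occurred only in genes that did not pass and in a ratio whose groups overlapped. WRN was at -0.0082 with upper-quartile scaling and -0.011 without a filter, and RAD54L at -0.0035 without a filter. With 1 library left out, log2 fold changes ran from -0.059 to 0.076 for RAD50, -0.033 to 0.050 for RAD51D, -0.037 to 0.068 for RAD54L, -0.043 to 0.040 for WRN, -0.064 to 0.0076 for FANCI, -0.10 to 0.019 for BRIP1, and -0.094 to 0.029 for the RAD51D to XRCC2 ratio. The cause was not tested. Depth limits precision most where counts are fewest, as in RAD51B with 52 to 75 counts per MANIO library.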

Other observations

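In 4 of the 43 genes, RAD51D, XRCC5, XRCC6 and PRKDC, replicates 1 and 2 lay above replicates 3 and 4 in both groups. PRKDC showed this most plainly, with 788 and 795 CPM in the first pair of DMSO libraries and 675 and 672 CPM in the second, and 798 and 808 CPM against 702 and 726 CPM in MANIO. DMSO replicate 4 was the lowest DMSO library for 23 of the 43 genes and MANIO replicate 3 the lowest MANIO library for 21. These patterns were not counted over all genes, so whether they are particular to the repair genes was not tested. The labels give no batch, so what these libraries share was not tested.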
